A study of Mus musculus with 9 samples.

Results

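The BCL2 family genes followed here are Bcl2, Bcl2l1, Mcl1, Bcl2l11, Bax, Bak1, Bid, Bbc3, Bad and Bmf, read in mouse embryonic stem cells kept with a nitric oxide donor, without leukemia inhibitory factor (LIF) or with it. Members were all probe sets whose single gene symbol on the array platform is one of these 10 names, which gave 31 of the 45101 probe sets. They cover 9 of the 10 genes, since no probe set was named for Bax alone and Bax was not analysed here. Of the 31, 29 lay above the filter on low signals and were tested; the 2 left out were a probe set each of Bcl2 and Bcl2l1.

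Each of the 9 arrays holds total RNA of D3-pOct4 cells, a mouse embryonic stem cell line, after 7 days in serum-containing medium. The 3 groups were cells without LIF that received 2 µM DETA/NO, a slow nitric oxide donor (no LIF + DETA/NO), cells without LIF (no LIF) and cells with LIF at 1000 U/ml (LIF). Each group has replicates 1, 2 and 3, from passages 31, 33 and 34 of the same line, and the labels say no more on how separate the cultures were. The p-values therefore reflect the variation among 3 arrays a group, part of which may be technical. Values are globally scaled signal intensities on a linear scale, with an array median of 13.9 to 23.3.

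BCL2 family proteins decide whether the outer membrane of the mitochondrion stays closed. The effectors Bax and Bak1 form pores in it, the pro-survival proteins Bcl2, Bcl2l1 (BCL-XL) and Mcl1 hold the effectors back, and the BH3-only proteins, among them Bcl2l11 (BIM), Bid, Bbc3 (PUMA), Bad and Bmf, set the effectors free by binding the pro-survival proteins or the effectors themselves. Embryonic stem cells are known as cells that enter apoptosis readily, and LIF acts in them through STAT3. Much of the family's control lies in protein stability, cleavage and phosphorylation, which arrays do not read.

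Several arrays need naming before the results. Socs3, a STAT3 target, read 95.8, 405 and 127 with the donor, 102, 3054 and 330 without LIF and 3213, 282 and 1794 with LIF. By Socs3 the arrays labelled no LIF replicate 2 and LIF replicate 2 go against their labels. Klf4 read 1368, 625.1 and 233.3, then 197.1, 2542 and 698.1, then 2482, 1062 and 1863 in the same order. It was highest on no LIF replicate 2, while LIF replicate 2 lay above the other no LIF arrays. Pou5f1 read 958.3, 1096 and 3044, then 3211, 2562 and 2491, then 1711, 1401 and 1874. Its no LIF arrays all lay above its LIF arrays, replicate 2 included. No LIF + DETA/NO replicate 3 and no LIF replicate 1 correlated at r = 0.977 over all tested probe sets, the highest value of any pair, and are called the alike pair. No LIF + DETA/NO replicates 1 and 2 and LIF replicate 1 had the highest medians, 20.8 to 23.3 against 13.9 to 17.8 on the other arrays, and are called the brighter arrays. The stem cell markers Pou5f1, Nanog, Sox2, Zfp42, Esrrb, Utf1, Tdgf1 and Lin28a had summed signals of 8117 to 11790 with the donor, 12370 to 19010 without LIF and 10300 to 15080 with LIF. The 8 fibroblast or feeder markers summed to 75.9 to 147.6, 84.8 to 145.4 and 79.4 to 162.3, with Col3a1, Postn, Lum and Dcn below the array median on all 9 arrays. The 7 primitive or parietal endoderm markers summed to 1197 to 2508, 1247 to 4203 and 3019 to 9882, and the 4 neuroectoderm markers to 139.3 to 185, 55.5 to 150.6 and 94.9 to 144.8, with Pax6 below the median everywhere. The part of any of these in the results below was not tested.

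Promoter sequences from RefSeq (build GRCm38.p6, 250 bases before to 50 after a gene's start) were found for all 9 members, 17 in all. They were searched on both strands for GTAAACA, the core that FOXO transcription factors bind, because Bcl2l11 and Bbc3 are known FOXO3 targets and had log2 differences of opposite sign here, a choice made with their values known. The letters occurred in 2 of the 17 promoters, 1 of the 2 of Bcl2l11 and 1 of the 3 of Bbc3, and in 3.65% of all 32851 promoters of that length. The windows run 5′ to 3′ on the + strand, at chr2:128125791-128125837 for Bcl2l11 and chr7:16310074-16310120 for Bbc3, with 20 bases on each side of the match. Capitals mark the match, which is TGTTTAC, the reverse complement, in Bbc3.
Bcl2l11: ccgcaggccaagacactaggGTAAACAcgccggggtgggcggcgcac
Bbc3: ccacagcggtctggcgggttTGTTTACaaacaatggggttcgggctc
A match describes letters, not a bound site. Foxo1 and Foxo3, named here for this motif after their values were seen, differed by 0.36 (SE 0.44) and 0.02 (SE 0.38) on the log2 scale between donor and no LIF cells.

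Bcl2l11 was the member whose donor arrays stood apart. Its brightest probe set, 1456005_a_at, read 803.7, 836 and 785.6 with the donor, 558, 366.1 and 693.7 without LIF and 362.3, 545.6 and 353.8 with LIF. All 3 donor arrays were above all 6 others, which held for 0.912% of all tested probe sets and for 1 of the 29 members tested. No probe set of any gene passed the test, this one included. Donor over no LIF, the log2 difference was 0.63 (SE 0.34; limma adjusted p = 0.929), and an exact permutation test gave two-sided p = 0.1, the smallest that 3 arrays against 3 allow. Donor over LIF, it was 0.97 (SE 0.34; limma adjusted p = 1, unadjusted p = 0.0162). The no LIF and LIF groups overlapped, with a log2 difference of 0.34 (SE 0.34). The exact permutation test gives p = 0.1 for any probe set whose 3 arrays against 3 do not overlap. It therefore adds nothing to the separation of donor and no LIF arrays given above.

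**Figure D1:**
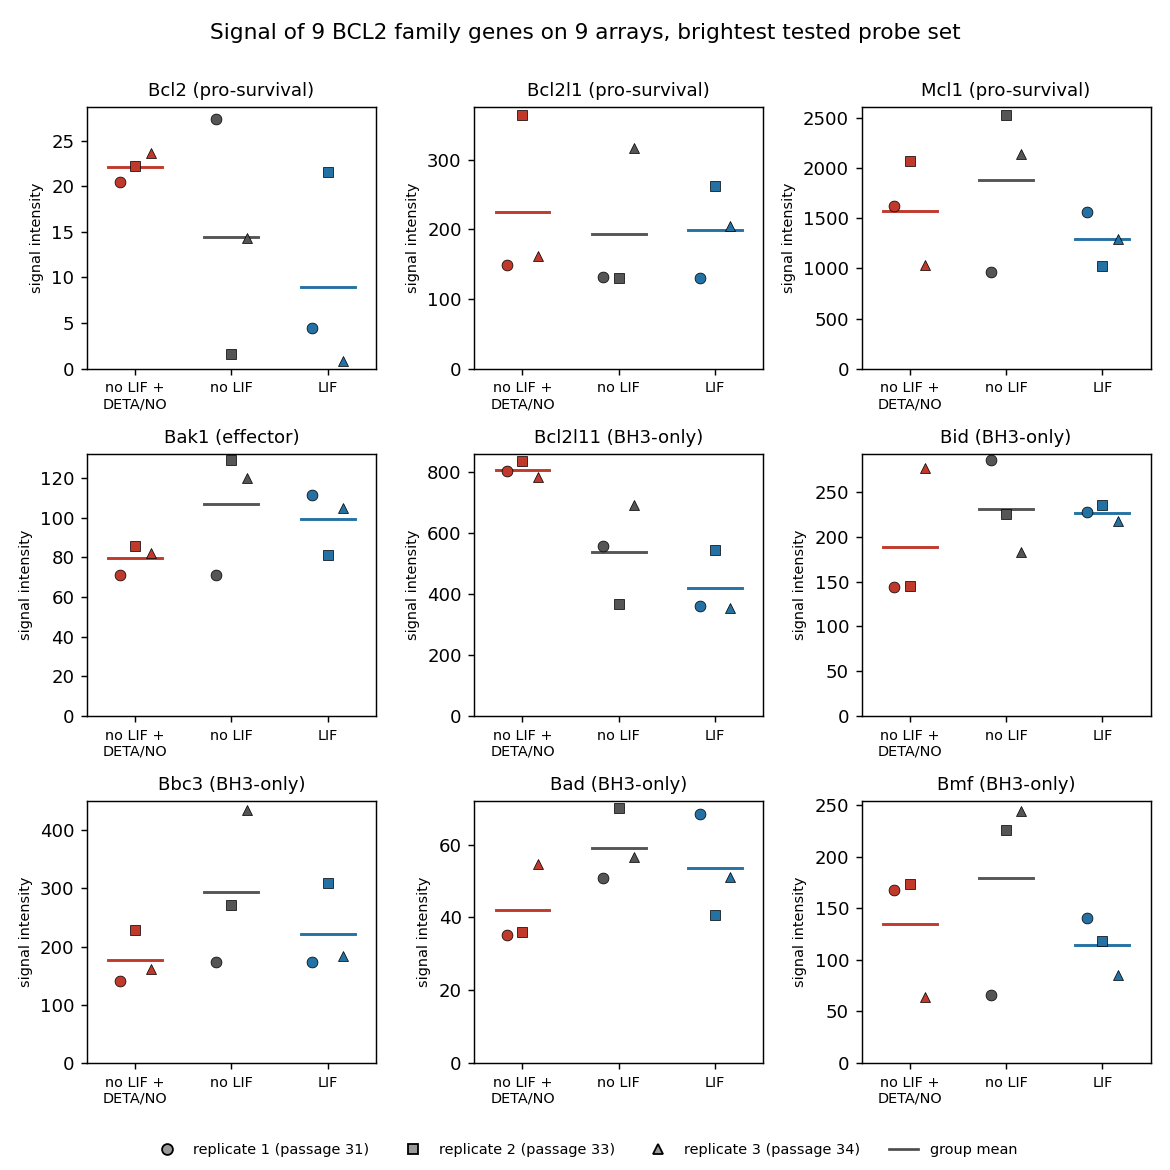
Signal intensity (linear, from 0) of the brightest tested probe set of each of 9 genes on the 9 arrays, by group; points are arrays, shapes are replicates 1 to 3 and bars are group means. Bcl2l11 lies at 785.6 to 836 on the donor arrays, above the 6 others, while the groups of the other genes overlap.

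The order of the arrays for this Bcl2l11 probe set did not follow the labels alone. Its 3 lowest signals were LIF replicate 3 at 353.8, LIF replicate 1 at 362.3 and no LIF replicate 2 at 366.1, the 3 arrays on which Socs3 was highest and the summed neuroectoderm markers lowest. LIF replicate 2, where Socs3 was 282, read 545.6 and lay beside no LIF replicate 1 at 558. Of the 4 neuroectoderm markers, only Nes was itself lowest on the 3 arrays lowest for this probe set. On LIF replicate 1, Sox1 read 53.3, and Pax6 read 14.8, its highest signal. Zic1 was lowest on no LIF replicate 3, at 0.653. In bulk RNA a lower level per cell and fewer cells that hold the Bcl2l11 transcript cannot be told apart. By passage, donor over no LIF differed by 0.52, 1.19 and 0.18 on the log2 scale at passages 31, 33 and 34, so most of the mean came from passage 33, that of no LIF replicate 2. Without that array the log2 difference was 0.38 (limma unadjusted p = 0.325, adjusted p = 1). It was 0.70 without the alike pair and 0.70 with the brighter arrays as a block. That block holds donor replicates 1 and 2 and no array of the no LIF group, so brightness and donor are largely confounded there. Median centring of the arrays gave 0.34 on the log2 scale, and there no LIF replicates 1 and 3 lay above donor replicate 1, so the donor arrays no longer stood above all others. Quantile normalization gave 0.71, with the donor arrays still above all 6 others.

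The other 4 Bcl2l11 probe sets are dimmer, and none set the groups apart. Probe set 1435448_at read 189.8, 226.2 and 292.3 with the donor, 287.2, 127.3 and 190.3 without LIF and 55.8, 223.3 and 129.2 with LIF. Its lowest array was LIF replicate 1 and the groups overlapped throughout. Probe set 1435449_at read 198.5, 111.5 and 158.4 with the donor, 191.1, 103.7 and 66.1 without LIF and 135.1, 72.9 and 61.2 with LIF. Probe set 1456006_at read 86.5, 41.3 and 79.8 with the donor, 76.7, 42.6 and 41.3 without LIF and 46.3, 37 and 34.4 with LIF. In both, the 3 highest arrays were donor replicates 1 and 3 and no LIF replicate 1. Probe set 1426334_a_at read 31.4, 70.3 and 56.7 with the donor, 80.1, 37.7 and 70.7 without LIF and 28.6, 36.6 and 45.2 with LIF, with its highest array in the no LIF group.

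Donor over LIF, all 5 Bcl2l11 probe sets had positive log2 differences, from 0.44 for 1426334_a_at to 0.97 for 1456005_a_at. On the deposited scale each of the 5 was higher with the donor in 3 of 3 passages. At passage 33 this did not hold for 2 of them under other scalings: with median centring the donor and LIF arrays had log2 signals of 7.63 and 8.01 for 1435448_at and of 5.25 and 5.51 for 1456006_at. With quantile normalization they had 5.29 and 5.46 for 1456006_at and were tied at 7.80 for 1435448_at. Donor over no LIF, 4 of the 5 were positive, from 0.28 to 0.63, and 1426334_a_at stood at -0.24 (SE 0.44). No LIF over LIF, all 5 were positive, from 0.34 to 0.69, and at passage 33 the difference was -0.57 for 1456005_a_at and -0.80 for 1435448_at. These probe sets read transcripts of 1 gene and are no replicates of each other, and the comparisons share arrays. Correlations between the 5 over the 9 arrays ran from r = -0.03 to r = 0.90, with a median of 0.44, so they did not move as 1 signal. Which Bcl2l11 transcript forms each probe set reads is not given in the sources used here.

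**Figure D2:**
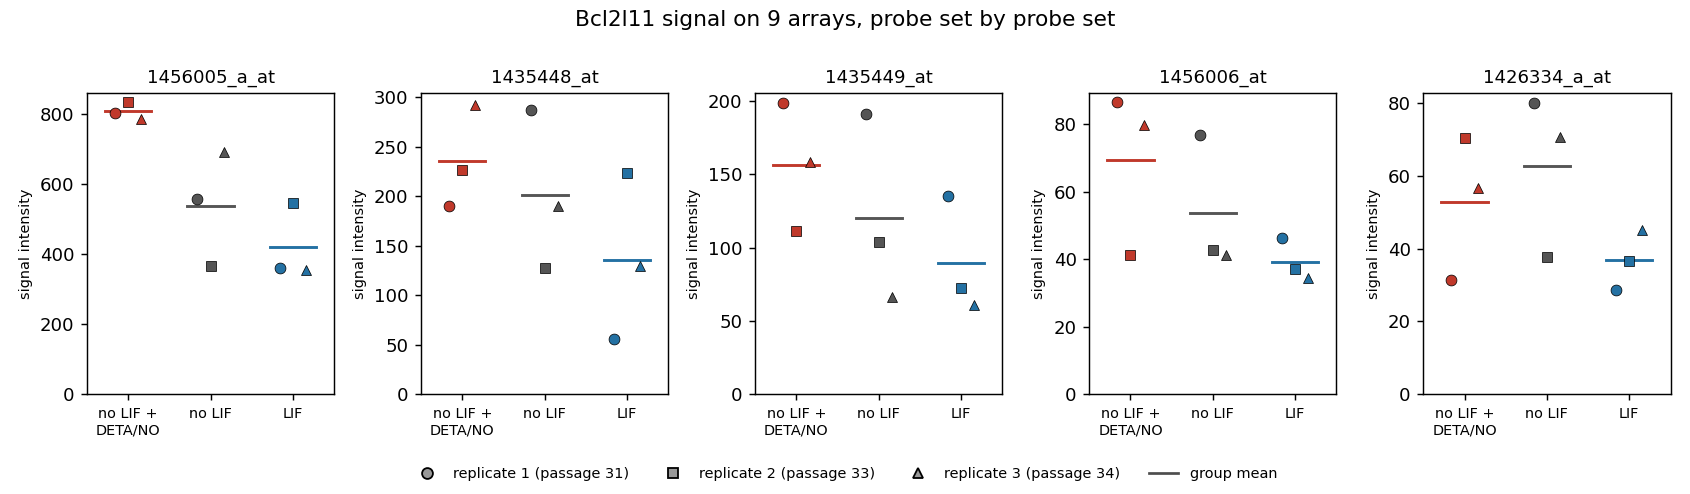
Signal intensity (linear, from 0, own scale per panel) of the 5 Bcl2l11 probe sets on the 9 arrays, by group; points are arrays, shapes are replicates and bars are group means. In 1456005_a_at the donor arrays lie at 785.6 to 836, above the other 6, and in the other 4 the donor group overlaps the others.

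Between donor and no LIF cells, the brightest probe sets of the other 4 BH3-only genes had negative log2 differences, and none passed the test (limma unadjusted p = 0.155 to 0.585). Bbc3, which p53 and FOXO factors induce, read 140.8, 229.2 and 160.7 with the donor, 174.3, 270.7 and 435 without LIF and 173.1, 308.9 and 183.3 with LIF. Donor over no LIF, its log2 difference was -0.65 (SE 0.43; limma adjusted p = 0.929), lower with the donor in 3 of 3 passages, though the groups overlapped. The single highest array, no LIF replicate 3 at 435, carried much of this, and leaving it out gave -0.32. Bad, whose protein is held inactive by survival kinases, read 35.3, 35.9 and 54.6 with the donor, 50.9, 70.2 and 56.5 without LIF and 68.5, 40.8 and 51.2 with LIF in its brighter probe set. Its log2 difference, donor over no LIF, was -0.48 (SE 0.37), and its other probe set gave -0.51 (SE 0.48). Both Bad probe sets are modest signals with donor replicate 1 the lowest array.

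Bid, which links death receptors to the mitochondrion once caspase-8 has cut it, read 143.6, 144.7 and 276.4 with the donor, 285.3, 225.1 and 183.2 without LIF and 228.1, 235.3 and 218 with LIF. Donor replicates 1 and 2 were its lowest arrays, and donor replicate 3 and no LIF replicate 1, the alike pair, its highest. The log2 difference was -0.34 (SE 0.37) donor over no LIF and 0 (SE 0.37) no LIF over LIF. With the brighter arrays as a block the first shrank to -0.03, and with single arrays left out it ran from -0.65 without donor replicate 3 to -0.18 without no LIF replicate 1. Bmf, a BH3-only protein tied to the cytoskeleton, read 167.6, 173.4 and 64.1 with the donor, 66.3, 225.6 and 244.7 without LIF and 140.3, 118.3 and 85.6 with LIF in its brightest probe set. The 2 lowest arrays were again the alike pair, and the donor over no LIF difference of -0.32 (SE 0.57) was smaller than its error. It was 0.14 without donor replicate 3, 0.007 without no LIF replicate 3 and -0.91 without no LIF replicate 1. A dim Bmf probe set, 1422995_at, read 11.6, 19.9 and 10.3 with the donor, 6.5, 3.62 and 15.7 without LIF and 2.35, 0.405 and 9.44 with LIF. There the donor and LIF arrays did not overlap, and differed by 1.43 on the log2 scale (SE 0.59; limma unadjusted p = 0.0353, adjusted p = 1), but 8 of the 9 signals lay below their own array's median.

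Bak1, the pore-forming effector measured here, read 71.2, 85.8 and 82 with the donor, 71.1, 129.1 and 120.1 without LIF and 111.2, 81.3 and 104.7 with LIF. The donor arrays spanned a narrow range, 71.2 to 85.8, within that of the no LIF arrays, and the log2 difference was -0.37 (SE 0.36; limma adjusted p = 0.941). Its other probe set was below the array median on all 9 arrays and stood at 0.42 (SE 0.54) donor over no LIF and -0.98 (SE 0.54) no LIF over LIF. The 2 probe sets therefore took opposite signs in the first of these comparisons and in the second, where the brighter one stood at 0.07.

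Among the pro-survival genes, Mcl1 gave high signals on every array. Its short-lived protein is needed early in mouse development. Its brightest probe set, 1437527_x_at, read 1620, 2069 and 1033 with the donor, 963.3, 2527 and 2136 without LIF and 1556, 1025 and 1296 with LIF. The groups overlapped, with the highest signals on no LIF replicates 2 and 3, and the alike pair and LIF replicate 2 were lowest. Log2 differences were -0.20 (SE 0.41) donor over no LIF and 0.44 (SE 0.41) no LIF over LIF. All 6 Mcl1 probe sets were negative in the first, from -0.52 to -0.20, and positive in the second, from 0.24 to 0.56. Probe set 1448503_at read 1114, 1466 and 1755 with the donor, 2090, 1852 and 1467 without LIF and 1189, 1363 and 1401 with LIF. Its no LIF arrays lay above all LIF arrays, which 2.88% of all tested probe sets showed and 1 of the 29 members, and the fitted value was 0.44 on the log2 scale (SE 0.28; limma adjusted p = 0.973). No member separated the other way, no LIF below LIF, against 4.72% of all probe sets.

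The 6 Mcl1 probe sets fell into 2 patterns over the arrays. Probe sets 1437527_x_at, 1456243_x_at, 1456381_x_at and 1416880_at correlated with each other at r = 0.81 to r = 0.98, and 1448503_at and 1416881_at at r = 0.90. Between the 2 sets r was -0.35 to -0.04. On no LIF replicate 1 the first 4 gave among their lowest signals, 792.6 to 963.3, while 1448503_at and 1416881_at gave their highest, 2090 and 687.4. A statement on the Mcl1 level of an array thus depends on the probe set read.

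Bcl2l1, a known STAT3 target whose protein has a long pro-survival and a short pro-death form, read 148.2, 363.9 and 162.1 with the donor, 132.4, 130.3 and 316.5 without LIF and 130.4, 262.5 and 205 with LIF. One donor array, replicate 2, and one no LIF array, replicate 3, were high, and the groups overlapped. Its log2 differences were 0.22 (SE 0.50) donor over no LIF, -0.12 (SE 0.50) no LIF over LIF and 0.10 (SE 0.50) donor over LIF. The lowest 3 signals were on no LIF replicates 1 and 2 and LIF replicate 1, where Socs3 read 102, 3054 and 3213. Its next probe set, 1420887_a_at, was steadier at 32.1 to 61.4 over all 9 arrays, with differences of 0.02 or less in size in all 3 comparisons. The dimmer 1426191_a_at read 7.9 to 24.6. Its log2 differences were 0.51 donor over no LIF, -0.565 no LIF over LIF and -0.06 donor over LIF (SE 0.45 each). It correlated at r = 0.02 with the brightest probe set and at r = -0.41 with 1420887_a_at. The probe set left out of the tests read 0.432 to 7.72.

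Bcl2 itself was dim. Its 5 probe sets read 0.874 to 27.7 over all arrays, and 3 of them lay below the array median on all 9. The brightest, 1457687_at, read 20.5, 22.2 and 23.6 with the donor, 27.4, 1.65 and 14.3 without LIF and 4.47, 21.6 and 0.874 with LIF. The donor arrays were close together while the other groups split, and the 3 lowest arrays were LIF replicate 3, no LIF replicate 2 and LIF replicate 1. Those are the same 3 arrays that were lowest for the brightest Bcl2l11 probe set and highest for Socs3. Log2 differences were 0.90 (SE 0.78) donor over no LIF, 0.59 (SE 0.78) no LIF over LIF and 1.49 (SE 0.78; limma adjusted p = 1) donor over LIF. Without no LIF replicate 2 the first became 0.13, and without no LIF replicate 1 it became 1.48. The third was 0.89 without LIF replicate 3 (limma unadjusted p = 0.299) and 0.73 as a mean of the Bcl2 probe sets, while without both replicate 2 arrays of the no LIF and LIF groups it was 2.22 (limma unadjusted p = 0.00225, adjusted p = 0.494).

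**Figure D3:**
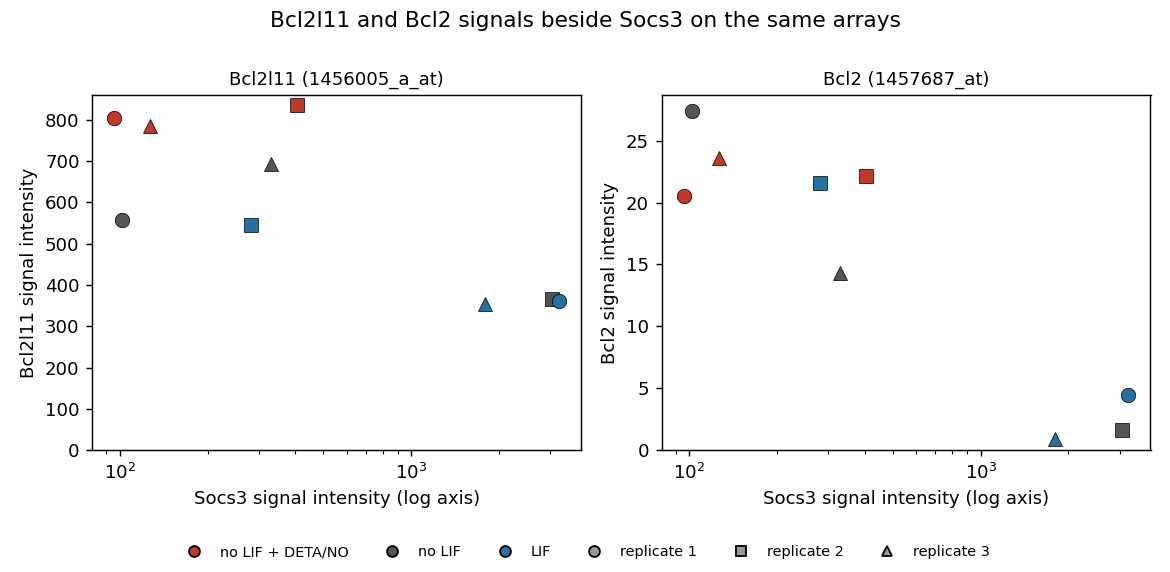
Signal intensity of Bcl2l11 (left) and Bcl2 (right), brightest probe sets, against the Socs3 signal of the same array (log axis); each point is 1 of the 9 arrays, coloured by labelled group with shapes for replicates. The 3 arrays with Socs3 at 1794 to 3213 have the lowest signals of both genes, 353.8 to 366.1 and 0.874 to 4.47.

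The other Bcl2 probe sets did not share that order. Probe set 1437122_at read 24.8, 12.6 and 10.9 with the donor, 12, 7.97 and 21.9 without LIF and 27.7, 11.3 and 7.34 with LIF. Its groups overlapped. Its log2 differences were 0.18 donor over no LIF, -0.05 no LIF over LIF and 0.13 donor over LIF (SE 0.54 each). Probe set 1443837_x_at read 19.4, 18.2 and 13.5 with the donor, 7.23, 5.55 and 11.4 without LIF and 14, 10.4 and 9.85 with LIF. Donor and no LIF arrays did not overlap, which was seen, in this direction, for 6.40% of all tested probe sets and for 2 of the 29 members, this one and the brightest of Bcl2l11. Its log2 difference was 0.88 (SE 0.40; limma adjusted p = 0.929), and its 3 highest arrays were the 3 brighter ones, whose part in this was not tested. Probe set 1440770_at read 18.2, 17.1 and 7.89 with the donor, 12.4, 2.49 and 8.42 without LIF and 5.4, 6.68 and 7.29 with LIF, with donor and LIF arrays apart. Such separation, donor above LIF, occurred for 2.79% of all tested probe sets and for 3 members, of Bcl2l11, Bcl2 and Bmf. Separation with the donor arrays lower occurred for 0 members against both no LIF cells (2.52% of all probe sets) and LIF cells (3.19%).

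Over all members, calls numbered 0 of 29 in each comparison, as they did over all 29811 probe sets tested (0% called). At an unadjusted limma p under 0.05 there were 1498 probe sets donor over no LIF (5.02%), 459 no LIF over LIF (1.54%) and 578 donor over LIF (1.94%), and among the 29 members 0, 0 and 2. Those 2 were Bcl2l11 1456005_a_at and Bmf 1422995_at. Over the 29 tested member probe sets, differences above 0 numbered 12 donor over no LIF, 23 no LIF over LIF and 18 donor over LIF, which is 41.4%, 79.3% and 62.1%, where all tested probe sets had 56%, 42.7% and 52.2%. With 1 probe set a gene, 3 of the 9 members were higher donor over no LIF (Bcl2, Bcl2l1 and Bcl2l11), with a median log2 difference of -0.32, where 47.6% of all 13376 genes were higher and their median was -0.03. No LIF over LIF, 8 of 9 members stood above 0 and their median was 0.34, where all genes had 50.4% and 0.01. Bcl2l1 was the exception, and Bid stood at 0. Donor over LIF, it was 5 of 9 and 0.10, where all genes had 49.1% and -0.01. By role, donor over no LIF, 2 of 3 pro-survival genes, 0 of 1 effector and 1 of 5 BH3-only genes were higher. Of the 5 BH3-only genes, 5 stood above 0 no LIF over LIF and 2 donor over LIF. The counts are a description.

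**Figure D4:**
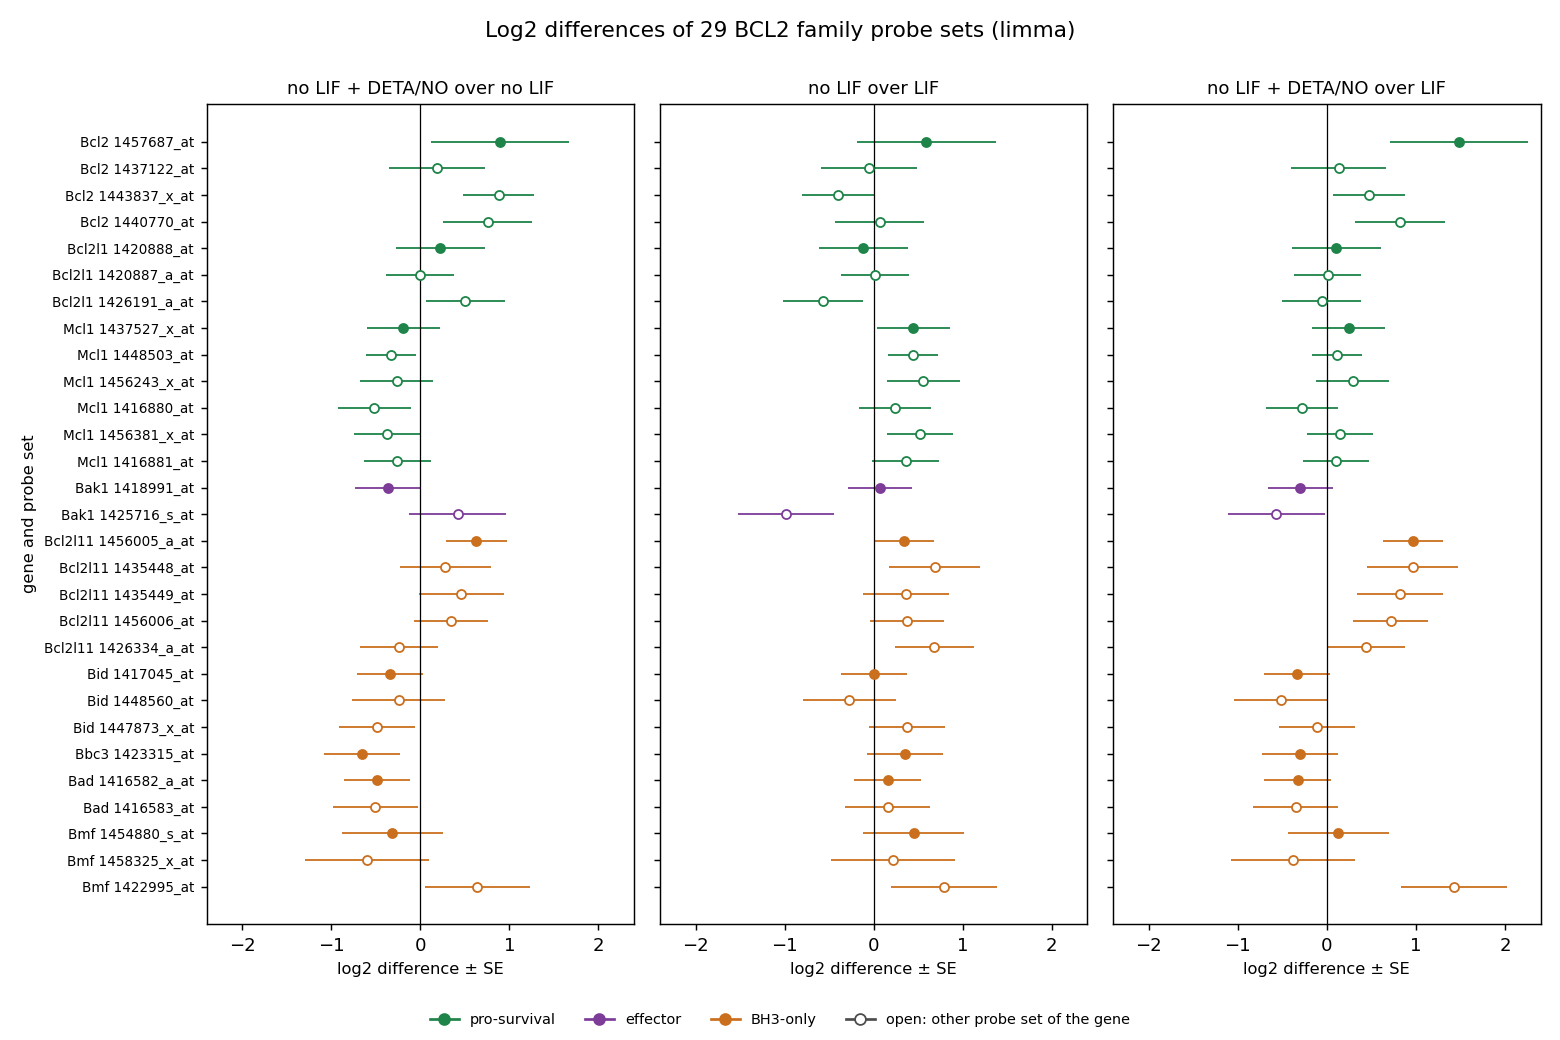
Log2 differences with their standard errors (bars) of the 29 tested member probe sets in 3 comparisons, coloured by role; filled points are the brightest probe set of a gene and open points its others. All 5 Bcl2l11 probe sets lie above 0 no LIF over LIF and donor over LIF, and 4 of 5 donor over no LIF.

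Pro-survival genes were set against BH3-only genes on each array, after each gene was centred on its mean over the 9 arrays, since levels of different probe sets cannot be compared directly. The mean of Bcl2, Bcl2l1 and Mcl1 minus that of the 5 BH3-only genes was 0.30, 0.71 and 0.12 with the donor, 0.13, -0.69 and 0.06 without LIF and -0.42, 0.18 and -0.39 with LIF, in centred log2 units. The lowest 3 arrays were no LIF replicate 2 and LIF replicates 1 and 3, and the groups overlapped. Bcl2 is part of this score, with centred values of -1.64, -0.95 and -1.90 on those arrays. Bcl2l1 stood there at -0.54, -0.54 and 0.10 and Mcl1 at 0.76, 0.06 and -0.21. Most of the low pro-survival means on these arrays thus came from dim Bcl2. Group means were 0.38 ± 0.30 with the donor, -0.17 ± 0.45 without LIF and -0.21 ± 0.34 with LIF (SD, n = 3). The difference between group means was 0.54 donor over no LIF and 0.59 donor over LIF. Under a stricter filter that leaves dim Bcl2 out these became 0.25 and 0.15. Donor over no LIF it was 0.28 without no LIF replicate 2 and 0.82 without the alike pair, and donor over LIF it was 0.24 with a gene's probe sets averaged. Set against Bak1, the pro-survival mean gave 0.53, 0.84 and 0.22 with the donor, 0.35, -0.93 and 0.14 without LIF and -0.73, 0.42 and -0.83 with LIF. The same 3 arrays were lowest there, where Bcl2 is again part of the mean.

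**Figure D5:**
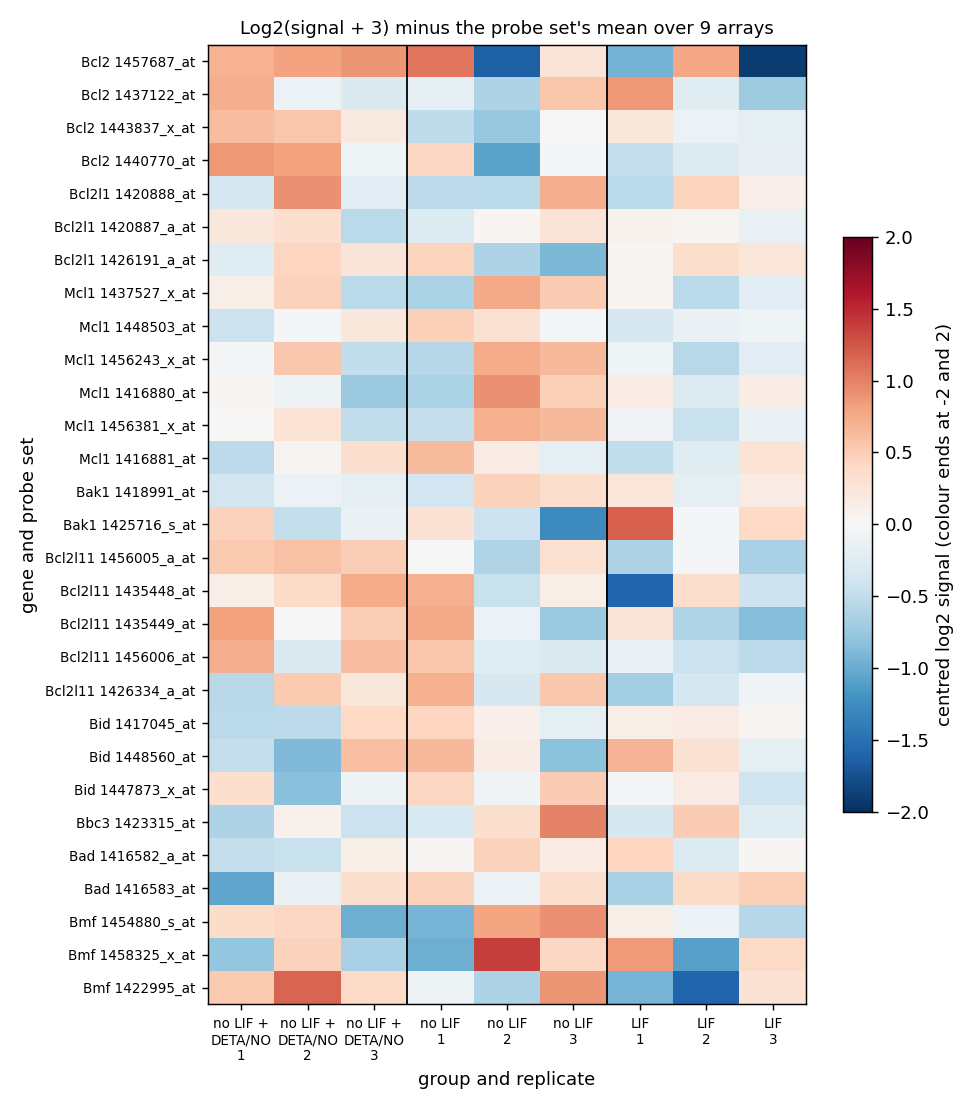
Log2(signal + 3) of the 29 tested member probe sets minus each probe set's mean over the 9 arrays, in colour (red higher, blue lower, ends at -2 and 2); columns are arrays by group and replicate, rows are probe sets. The brightest Bcl2l11 row is above its mean on all 3 donor arrays, and the Mcl1 rows split into 2 patterns.

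Genes that act beside these members were read from 6 lists, and 0 of their tested genes passed in any comparison. Donor over no LIF, other BCL2 family genes were higher in 5 of 9, caspases and apoptosome genes in 5 of 9, inhibitors of apoptosis in 3 of 5, the death receptor arm in 3 of 7 and upstream regulators in 8 of 13. The list called outer membrane partners held Vdac1, Vdac2, Vdac3, Mtch2, Bag1, Bag3, Tmbim6 and Bcap31. Its name does not place each of these proteins at the mitochondrion. All 8 had negative log2 differences donor over no LIF. Their median was -0.44, where all genes had -0.03. The channel Vdac1 stood at -0.66 (SE 0.35) and the co-chaperone Bag1 at -0.99 (SE 0.53). Bag1 read 218.5, 318.4 and 737.8 with the donor, 722.4, 651 and 870.9 without LIF and 210.3, 621.7 and 631.4 with LIF. Its 3 lowest arrays were the brighter ones, whose part in the list's values was not tested.

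The genes of these lists with the smallest p, donor over no LIF, included Ddit3 (CHOP), a stress factor that can induce Bcl2l11, at -1.46 (SE 0.49; limma unadjusted p = 0.0125, adjusted p = 0.929). It read 67.1, 61.1 and 56.1 with the donor, 78.6, 276.1 and 237.5 without LIF and 108.5, 141.2 and 80 with LIF, with all donor arrays below all others, which held for 0.614% of tested probe sets. Bnip3, a hypoxia-induced relative of the BH3-only proteins, stood at -1.27 (SE 0.56) and Bcl2l12 at -0.59. The caspases Casp9 and Casp6 stood at -0.80 and -0.58, and the inhibitors Birc6 and Birc5 at 1.70 (SE 0.87) and -0.78. Birc6 was highest on the brighter arrays, at 623.1 and 371.6 on donor replicates 1 and 2 and 751 on LIF replicate 1. Bnip3, Birc5 and Casp6 were lowest on those arrays. Ddit3, Bcl2l12, Casp9, Cflar, Fadd and Ywhaz showed neither order. The part of brightness in these values was not tested. The receptor-arm genes Cflar and Fadd stood at 0.77 and 0.46, and Ywhaz, a 14-3-3 protein, at -0.79. Ywhaz was also the list gene with the smallest p donor over LIF, at -1.11 (SE 0.36; limma adjusted p = 1). No LIF over LIF, 8 of 9 caspases and apoptosome genes were above 0 (median 0.18), as were 6 of 8 outer membrane partners (median 0.38) and 6 of 9 other BCL2 family genes (median 0.20). The inhibitors had 2 of 5 above 0, the receptor arm 3 of 7 and the regulators 6 of 13. Donor over LIF, the counts above 0 were 4 of 9 other BCL2 family genes, 6 of 9 caspases and apoptosome genes, 1 of 5 inhibitors, 4 of 7 of the receptor arm, 1 of 8 outer membrane partners and 5 of 13 regulators.

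The genes most like the brightest Bcl2l11 probe set over the 9 arrays, by Pearson's r of log2 signals among 13375 genes, were Marveld3 at r = 0.97, Dbndd1 at 0.95, Dusp5 at 0.93, Tmem125 at 0.93 and St6gal1 at 0.93. Dusp5, an ERK phosphatase, read 98.1, 133.2 and 135.4 with the donor, 95, 13.3 and 106.7 without LIF and 14.9, 82.5 and 29 with LIF. Its 3 lowest arrays were those lowest for that Bcl2l11 probe set. For the brightest Bcl2 probe set they were Ahr at r = 0.99, Gli3 and Plp2 at 0.98, and Irs1 and Kcnj3 at 0.97. The arrays share scaling and 2 of them are the alike pair, and 195 and 371 genes exceeded r = 0.8 for Bcl2l11 and Bcl2, so these names are the top of long lists.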

How the data were processed

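The authors deposited 1 signal intensity, on a linear scale, for each of 45101 probe sets on each of 9 Affymetrix arrays. The design text names GeneChip Operating System version 1.4.0.036 and a global scaling as the source, while MAS5 is named in the submitters' processing notes. The trimmed mean (2% at each end) of every deposited column was 100. Detection calls were not used here.

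Signals were turned to log2(signal + 3), on which fold changes of dim probe sets are understated. Probe sets at or above the 40th percentile of their array on at least 3 arrays were tested (29811), with 64 control probe sets left out. Names came from the platform annotation, and all 31 member probe sets matched RefSeq symbols. The tested probe set with the highest mean signal stood for a gene. One limma 3.58.1 fit (R 4.3.3, intensity trend, group as only term) over all 9 arrays gave two-sided p-values. Benjamini-Hochberg adjustment covered the 29811 probe sets, and an adjusted value under 0.05 was a call. The fit was tested on simulated data.

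The members and the gene lists were chosen with earlier results of these data known. Genes outside the members were named as the 2 with the smallest p in a list, the 5 most alike in pattern, and markers. Socs3, Klf4 and Pou5f1 were named as checks of the labels. Foxo1 and Foxo3 were named outside this rule, after their values were seen. Alternatives covered the pseudocount, filter, normalization, trend, arrays in the fit, replicate block, probe set choice, doubted arrays, array brightness and each array left out. The number of arrays limits the precision, with a median standard error of a log2 difference of 0.5.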

Additional observations from a re-analysis of the deposited data

How the results depend on the processing

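Under all 22 alternatives, calls stayed at 0 over all probe sets and 0 among the members in each of the 3 comparisons, by limma. The number of members higher was 2 to 5 donor over no LIF, 6 to 8 no LIF over LIF and 3 to 5 donor over LIF when single arrays were left out; it was 5 without donor replicate 3 in the first and 3 without donor replicate 2 in the third. The brightest Bcl2l11 probe set kept its sign in all 3 comparisons, at 0.34 to 0.83 donor over no LIF, 0.13 to 0.79 no LIF over LIF and 0.86 to 1.17 donor over LIF. Of 27 log2 differences of single members, 16 kept their sign throughout.

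The signs that turned are given here. Median centring gave Bcl2l1 -0.071 donor over no LIF and 0.13 no LIF over LIF, and probe set 1435448_at -0.015 donor over no LIF. Quantile normalization gave Mcl1 0.001 donor over no LIF. Averaging a gene's probe sets gave Bak1 0.025 donor over no LIF and -0.46 no LIF over LIF. Without both replicate 2 arrays of the no LIF and LIF groups, Mcl1 was 0.076 and 1435448_at -0.009 donor over no LIF, and Bcl2l1 was 0.32, Bak1 -0.22 and Bad -0.14 no LIF over LIF. Without the alike pair, no LIF over LIF gave Bcl2l1 0.085, Bid -0.158 and 1435449_at -0.029. With brightness as a block, Bid was -0.15 no LIF over LIF and Bmf -0.18 donor over LIF. The pro-survival minus BH3-only balance no LIF over LIF became 0.50 without both replicate 2 arrays, against 0.05. It turned to -0.22 with a gene's probe sets averaged, -0.10 without the alike pair and -0.04 at a pseudocount of 16. With single arrays left out it ran from -0.10 to 0.31. With the filter at the 60th percentile, which leaves Bcl2 out, the balance was -0.10 no LIF over LIF and 0.15 donor over LIF. The cause of the other turns was not tested.

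With single arrays left out, donor over no LIF ran from -0.18 to 0.64 for Bcl2l1, -0.618 to 0.079 for Mcl1, -0.91 to 0.14 for Bmf, -0.556 to 0.072 for 1426334_a_at and -0.009 to 0.57 for 1435448_at. No LIF over LIF ran from -0.009 to 1.36 for Bcl2, -0.53 to 0.11 for Bcl2l1, -0.084 to 0.333 for Bak1, -0.16 to 0.16 for Bid, -0.013 to 0.34 for Bad and -0.029 to 0.716 for 1435449_at. Donor over LIF ran from -0.30 to 0.34 for Bcl2l1 and -0.11 to 0.59 for Bmf. Probe sets at an unadjusted p under 0.05 numbered 486, 683 and 4290 without donor replicate 1, 2 or 3 and 797 or 959 without no LIF replicate 2 or 3, against 1498, donor over no LIF. No LIF over LIF they numbered 283, 1753 and 255 on leaving out LIF replicate 1, 2 or 3 and 765 on leaving out donor replicate 3, against 459, and donor over LIF 1026 on leaving out donor replicate 3, 1117 on leaving out LIF replicate 2 and 258 on leaving out LIF replicate 3, against 578. Doubted arrays, brightness and the filter moved these counts too: leaving out the alike pair gave 3564, 788 and 1185 in the 3 comparisons, brightness as a block 676, 294 and 1653, no filter 2353, 1135 and 1319, and the 60th percentile filter 862, 157 and 241. Leaving out both replicate 2 arrays gave 2444 no LIF over LIF and 1377 donor over LIF.

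The replicate number is the passage in the labels, but same-numbered arrays did not deviate together: r of their deviations from the group means was -0.60 to 0.65. Only donor replicate 1 and LIF replicate 1 correlated best with an array of their own number. With the replicate block, calls stayed at 0 and Bcl2l11 kept 0.63 donor over no LIF (limma adjusted p = 0.959). Dim signals limit what can be said of Bcl2, whose difference donor over LIF was 1.91 at a pseudocount of 1 and 0.70 at 16.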
